A study of Mus musculus with 28 samples.

Results

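Quercetin, a flavonol, and resveratrol, a stilbene, are plant polyphenols, and the question here was how gene expression in the liver differed when both were added together to a high fat diet. Of the 28 arrays of the series, 12 enter this comparison, chosen by their titles: 6 livers of mice fed high fat diet with both compounds (HQR) and 6 livers of mice fed high fat diet alone (HFD). The HQR diet held 0.2% quercetin and 0.2% resveratrol. For context, 3 other groups are used: high fat diet with 0.4% quercetin (HQ, 5 mice), high fat diet with 0.4% resveratrol (HR, 6 mice) and standard diet (SD, 5 mice). All were male C57/6J mice, 7 weeks old when the diets began and 33 weeks old at the end of 26 weeks of feeding, and HQR, HQ, HR and HFD mice all ate the high fat diet. Each array held Cy3-labelled RNA of 1 liver, and 2 livers with degraded RNA had been left out by the submitters. Whole liver was used, so fewer cells of a type and less RNA per cell cannot be told apart.

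A liver that stores fat under a rich diet switches on lipid droplet proteins, such as the CIDE family, and other targets of the nuclear receptor PPARγ. The liver's cytochrome P450 enzymes oxidise drugs and steroids, and several of them depend on sex in mice: the pattern of growth hormone release keeps Cyp2b9, Cyp2b13 and Hao2 low in males and high in females. Resveratrol has mostly been studied in the liver for its link to SIRT1 and AMPK, quercetin for its link to antioxidant genes under NRF2, and both as ligands of the aryl hydrocarbon receptor.

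Levels are the log2 of the processed signal minus the log2 of the 75th percentile of the same array, so a difference of 1 stands for a factor of 2. Between 64% and 79.5% of probes were well above background on HQR arrays, and between 64.5% and 82.1% on HFD arrays. The 75th percentile of the signal was 180 to 559 on HQR arrays and 282 to 532 on HFD arrays. Across genes, an HQR and an HFD array correlated with a median of 0.975, against 0.968 within HQR and 0.974 within HFD. The arrays lay on 9 slides, and 4 of these (slides 1, 6, 8 and 9) held both groups, with 5 HQR and 4 HFD arrays. The 3 arrays of slide 8, among them HQR replicate 4 and HFD replicate 5, had 79.3% to 82.1% of probes well above background, against 59.3% to 74.3% on the other slides. All 11 hepatocyte markers tested were well above background on every HQR and HFD array.

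Several of the lowest p-values belonged to a cluster of P450 genes on chromosome 7, and their sequences are shown because the likeness of these genes limits what each probe can tell. In the 250 bases before their start, Cyp2b13 (chr7:26061245-26061494, plus strand) and Cyp2b9 (chr7:26173159-26173408, plus strand) were identical at 248 of 250 positions, and capitals mark the bases at which the pair differs. The same window of Cyp2b10 (chr7:25897408-25897657, plus strand) was identical to Cyp2b13 at 182 of 260 aligned positions, and its capitals mark bases that differ from Cyp2b13 or have no partner in it. The sequences are those of RefSeq, build GRCm38.p6, 5′ to 3′.
Cyp2b13 promoter: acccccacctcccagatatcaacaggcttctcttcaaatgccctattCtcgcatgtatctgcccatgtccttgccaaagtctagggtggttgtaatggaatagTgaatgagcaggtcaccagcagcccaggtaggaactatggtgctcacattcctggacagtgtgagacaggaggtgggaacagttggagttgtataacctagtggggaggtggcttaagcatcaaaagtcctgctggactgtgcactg
Cyp2b9 promoter: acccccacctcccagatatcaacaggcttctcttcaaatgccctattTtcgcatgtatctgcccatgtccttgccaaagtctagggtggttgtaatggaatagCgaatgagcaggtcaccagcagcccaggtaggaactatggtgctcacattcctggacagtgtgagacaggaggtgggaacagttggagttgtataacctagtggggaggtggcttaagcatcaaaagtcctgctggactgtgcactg
Cyp2b10 promoter: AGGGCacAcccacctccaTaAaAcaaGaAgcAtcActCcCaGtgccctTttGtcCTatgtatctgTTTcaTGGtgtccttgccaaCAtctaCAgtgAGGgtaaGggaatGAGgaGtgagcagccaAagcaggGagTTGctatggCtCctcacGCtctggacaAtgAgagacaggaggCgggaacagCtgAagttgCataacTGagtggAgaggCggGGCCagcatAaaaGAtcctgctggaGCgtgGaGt
The motifs AGGTCA (a half-site of nuclear receptors), TATAAA and TTCNNNGAA were searched on both strands. AGGTCA occurred 1 time in each of the Cyp2b13 and Cyp2b9 windows and 0 times in the Cyp2b10 window, and 13.8% of 27025 promoter windows of this length hold it. TATAAA and TTCNNNGAA were in none of the 3 windows, against 13.0% and 7.18% of all windows. A match describes letters only.

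The array probes for these genes are 60 bases long, and the array files place them on build mm9, plus strand. The probe used for Cyp2b13 (chr7:26873757-26880713) is also tied by the array annotation to transcripts of Cyp2b9, Cyp2b10 and Cyp2b23. The probe used for Cyp2b9 is tied to Cyp2b10 as well. A second probe of Cyp2b9 (chr7:26983484-26983543) is tied to that gene alone, and the Cyp2b10 probe (chr7:26702056-26702115) to Cyp2b10 alone.
Cyp2b13 probe: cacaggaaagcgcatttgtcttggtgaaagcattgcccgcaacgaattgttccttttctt
Cyp2b9 second probe: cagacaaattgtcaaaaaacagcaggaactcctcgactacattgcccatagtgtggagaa
Cyp2b10 probe: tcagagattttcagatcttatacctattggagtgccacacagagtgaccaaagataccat
Because a probe may take up RNA of close paralogs, the share of each Cyp2b gene in the differences below is uncertain.

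Among the genes with the smallest p-values in HQR against HFD were the female-predominant P450 genes Cyp2b13 and Cyp2b9 and the peroxisomal hydroxy acid oxidase gene Hao2. All were lower in HQR, by 9.14-fold for Cyp2b13 and 9.03-fold for Cyp2b9. No fold is given for Hao2, since it was well above background on 1 of 6 HQR arrays. The log2 differences of Hao2 given below carry the same limit. Its probe was well above background on all 6 HFD arrays and on no HQ, HR or SD array. It thus met the filter of at least 5 such arrays only through HFD. None of these genes passed the test over all genes. Of 21850 genes, 0 had an adjusted p under 0.05 (0% called, limma on all 28 arrays, Benjamini-Hochberg). The lowest adjusted p was 0.0634, for Hao2. An unadjusted p under 0.05 was found for 296 genes (1.35%), fewer than the 1092 of an even spread of p-values. Of these, 105 were higher in HQR (0.481%) and 191 lower (0.874%). With slide as a block in the fit, 558 genes had an unadjusted p under 0.05 (2.55%) and 2 passed (0.00915%), namely Hao2 (adjusted p = 0.0214) and Ntrk2 (adjusted p = 0.0345), both lower in HQR. The number of genes that passed was 3 with quantile normalization, 2 with the HQR and HFD arrays alone and 4 without HQR replicate 4.

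**Figure D1:**
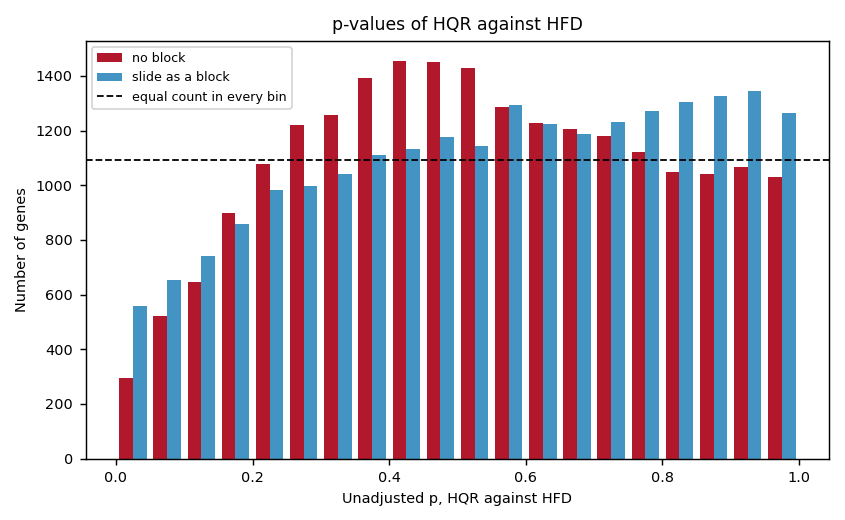
Number of genes (vertical axis) in 20 equal bins of the unadjusted p of HQR against HFD (horizontal axis), without a block and with slide as a block, with a dashed line at an equal count in every bin. The lowest bin holds 296 genes without a block and 558 with slide as a block.

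Hao2, listed as Hao3 in the array files, was near background in most HQR livers. Its level was -5.91 at the lowest, -5.58 at the median and -3.55 at the highest in HQR, against -4.09, -3.05 and -2.43 in HFD. HQR replicate 4, on slide 8, lay within the range of HFD, and the other HQR livers lay below every HFD liver. The probe (mm9, chr3:98678664-98678723, minus strand) was well above background on 1 of 6 HQR arrays and on 6 of 6 HFD arrays. The mean was -5.32 ± 0.88 in HQR and -3.11 ± 0.61 in HFD (SD, n = 6 each), a difference of -2.2 ± 0.37 (SE). The size of this difference and of those within slides is uncertain, since most HQR values were near background. Within slides the difference was -2.66 on slide 1, -2.1 on slide 6, -0.92 on slide 8 and -2.43 on slide 9, so HQR was lower on each.

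Cyp2b13 was -2.72 at the lowest, -1.86 at the median and -0.39 at the highest in HQR, against 1.16, 1.46 and 2.26 in HFD. Cyp2b9 was -0.71 at the lowest, 0.38 at the median and 1.69 at the highest in HQR, against 3.22, 3.65 and 4.09 in HFD. For both genes every HQR liver lay below every HFD liver. The difference of Cyp2b13 was -3.19 ± 0.59 (SE; adjusted p = 0.11), and a second probe, tied to Cyp2b13 alone, gave -3.01. The difference of Cyp2b9 was -3.17 ± 0.65 (adjusted p = 0.157), and its second probe, printed above, gave -2.49. Within slides the differences ran from -4.28 to -1.87 for Cyp2b13 and from -3.73 to -2.81 for Cyp2b9.

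Groups without overlap were rare: 14 genes were lower in every HQR liver than in any HFD liver (0.0641% of those tested) and 6 were higher (0.0275%). Among the lower ones was the transcript ENSMUST00000005477, which the array files describe as Cyp2b10, a P450 known for its response to the receptor CAR. Its level was -4.16 at the lowest, -3.83 at the median and -1.91 at the highest in HQR, against -1.54, -1.17 and -0.85 in HFD, a difference of -2.27 ± 0.43 (SE; adjusted p = 0.11). The probe named Cyp2b10 was dim, well above background on 1 HQR array and 6 HFD arrays, and its groups overlapped. It averaged -5.29 ± 1.15 in HQR and -3.58 ± 0.83 in HFD (SD, n = 6 each), with an adjusted p of 0.987.

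**Figure D2:**
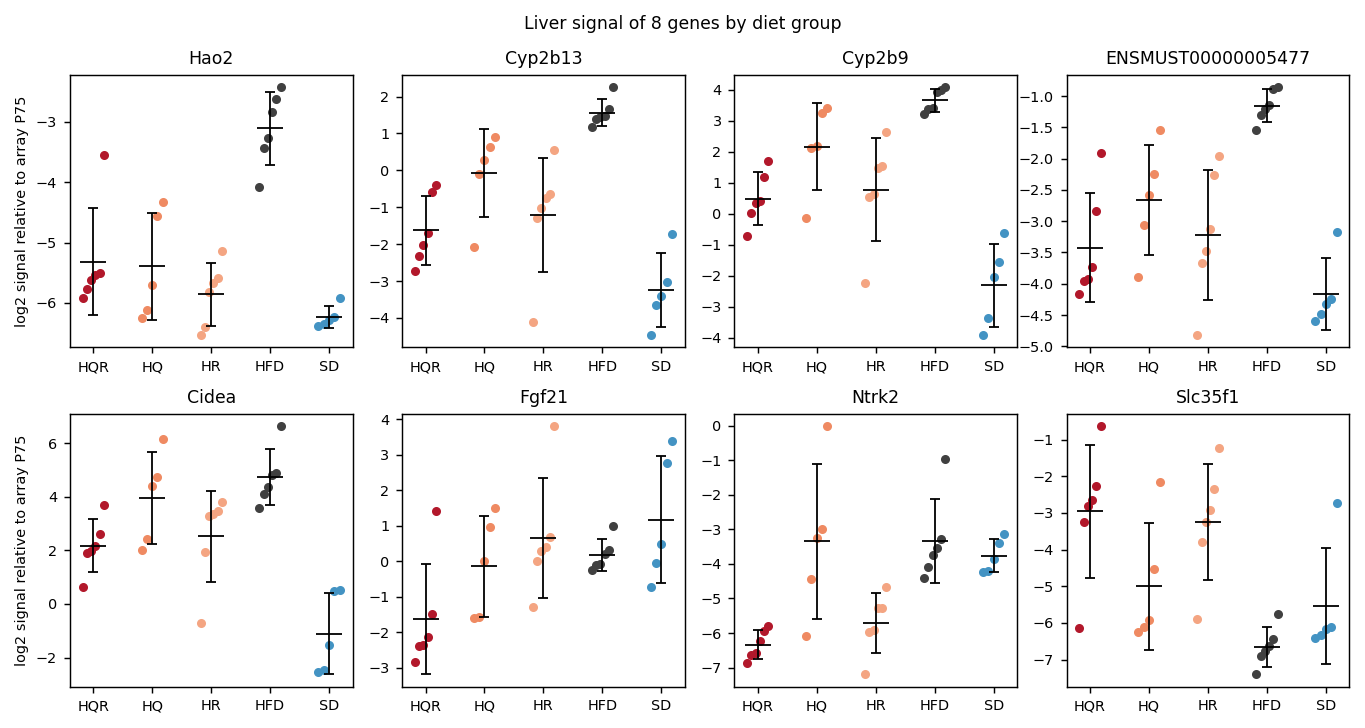
Level of 8 genes (vertical axes, log2, scaled to each array's 75th percentile) in HQR, HQ, HR, HFD and SD (horizontal axes). Points are livers, and the bar and whiskers are mean and SD. Cyp2b13, Cyp2b9, ENSMUST00000005477 and Ntrk2 do not overlap between HQR and HFD, and 1 HQR liver overlaps HFD for Hao2.

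Of the female-biased liver genes, 25 of 26 were tested, Sult3a1 being too dim. In HQR, 19 were lower and 6 higher, with a median difference of -0.68, against 0.05 over all genes, of which 58.5% were higher and 41.5% lower (47.5% higher with scaling to the array median). With normexp background correction the list's median was -0.29, and 16 members were well above background on every HQR and HFD array. None passed, and 8 were lower with an unadjusted p under 0.05, as were 0.874% of all genes. The list was written with earlier results of these data known and holds Hao2, Cyp2b13 and Cyp2b9. Of the 22 male-biased genes tested, 14 were higher and 8 lower, with a median of 0.08. Among them, the fatty acid hydroxylase gene Cyp4a12a averaged 5.9 ± 0.58 in HQR and 5.07 ± 0.49 in HFD, and the selenium-binding protein gene Selenbp2 8.94 ± 0.53 in HQR and 7.89 ± 0.75 in HFD (SD, n = 6 each). The adjusted p of both was 0.987. Moxd1, a monooxygenase gene, was well above background on 5 HQR arrays and 1 HFD array, with a difference of 1.51 ± 0.76 (SE; adjusted p = 0.987). In the growth hormone axis, 11 genes were higher and 8 lower, with a median of 0.04 (0.21 with slide as a block). The prolactin receptor gene Prlr averaged 1.47 ± 0.60 in HQR and 2.31 ± 1.03 in HFD, and its groups overlapped. Its other probes gave differences of -0.41 and -0.15.

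Ntrk2, which encodes TrkB, the receptor of the neurotrophin BDNF, was not well above background on any HQR array and was so on all 6 HFD arrays. Its level was -6.86 at the lowest, -6.41 at the median and -5.8 at the highest in HQR, against -4.41, -3.64 and -0.98 in HFD, without overlap. The HFD mean was at least 2.27-fold higher, a bound set by the lowest signals well above background on the HQR arrays. HFD replicate 3, at -0.98 against -3.30 in the next liver, raised the HFD mean that enters this bound. The fitted difference was -3.0 ± 0.65 (SE; adjusted p = 0.225) without a block and -3.41 ± 0.52 (adjusted p = 0.0345) with slide as a block. A second Ntrk2 probe gave -2.55.

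Further genes among the 24 with the smallest p-values were mostly lower in HQR. Gpc1, which encodes the heparan sulfate proteoglycan glypican 1, was 2.24 at the lowest, 2.46 at the median and 2.57 at the highest in HQR, against 2.88, 3.42 and 4.2 in HFD. Its groups did not overlap, and the difference was -1.08 ± 0.22 (SE; adjusted p = 0.157). The metallophosphoesterase gene Mpped2 was -3.41 at the lowest, -2.81 at the median and -2.57 at the highest in HQR, against -2.16, -1.6 and -0.80 in HFD, again without overlap. Its difference was -1.37 ± 0.27 (adjusted p = 0.133), with -1.09 from a second probe. Grin3b, a subunit of NMDA-type glutamate receptors, was -2.75 at the lowest, -1.62 at the median and -1.03 at the highest in HQR, against -1.13, -0.35 and 0.26 in HFD. Its groups overlapped slightly, and the difference was -1.33 ± 0.26 (adjusted p = 0.133).

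The olfactory receptor gene Olfr701 and the kinase gene Aatk also lay lower in every HQR liver. Olfr701 ran from -4.57 to -2.28 in HQR and from -1.88 to -1.61 in HFD, and Aatk from 2.45 to 3.31 in HQR and from 3.38 to 4.61 in HFD. Both had an adjusted p of 0.225. Rnf170, a ubiquitin ligase gene of the endoplasmic reticulum, differed by -0.83 ± 0.19 (SE; adjusted p = 0.442), with -0.32, -0.23 and -0.63 from its other probes. Trp53inp1, which p53 induces, differed by -1.25 ± 0.35, and the lipoprotein receptor gene Vldlr by -0.93 ± 0.27, each with an adjusted p of 0.987 and with overlap. The oxysterol hydroxylase gene Cyp39a1 was well above background on no HQR array and on 5 HFD arrays. Its groups overlapped, with a highest level of -4.85 in HQR and a lowest of -5.0 in HFD. The HFD mean was at least 1.41-fold higher, a bound that leaves out the spread between livers (adjusted p = 0.987). A second probe gave a difference of -0.64. The array entries TC1632605, AK050119 and AK054208 had no gene name here and differed by -1.21, -1.2 and -1.0.

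Of the 24 genes, 6 were higher in HQR. The solute carrier gene Slc35f1 differed by 3.69 ± 0.82 (SE; adjusted p = 0.23) and was well above background on 5 HQR arrays and on no HFD array. The HQR mean was at least 3.04-fold higher, and HQR replicate 4, at -6.15, lay within the HFD range of -7.4 to -5.75. The kinase gene Hunk averaged -0.83 ± 0.38 in HQR and -1.76 ± 0.32 in HFD (SD, n = 6 each), with an adjusted p of 0.442. The metalloprotease gene Adamts15 differed by 1.15 ± 0.29 and Tmx4, a thioredoxin-related membrane protein gene, by 0.88 ± 0.23 (SE; adjusted p = 0.86 each), though the other Tmx4 probes gave 0.29 and 0.44. Acsl4, an acyl-CoA synthetase gene whose enzyme prefers arachidonate, was 2.56 at the lowest, 2.82 at the median and 3.21 at the highest in HQR, against 1.59, 2.06 and 2.52 in HFD. The phosphatase gene Ptp4a3 ran from 0.68 to 1.51 in HQR and from -0.39 to 0.66 in HFD. Neither Acsl4 nor Ptp4a3 overlapped, with an adjusted p of 0.987 for both, and a second Ptp4a3 probe gave 0.10.

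Within the 4 slides that held both groups, Hao2, Cyp2b13, Cyp2b9, ENSMUST00000005477, Ntrk2, Gpc1, Mpped2, Grin3b and Cidea were lower in HQR on each slide. Acsl4 was higher in HQR on each slide. Cyp2b13, Cyp2b9, ENSMUST00000005477, Ntrk2, Gpc1, Mpped2 and Acsl4 had no overlap between the groups, so their direction on each slide was fixed. All these genes were chosen from the same arrays, so agreement between slides is no separate check. Slc35f1 was higher on slides 1, 6 and 9, and on slide 8 both arrays were in the range of the HFD arrays, none of which was well above background. Hunk was higher on 3, with -0.07 on slide 8.

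**Figure D3:**
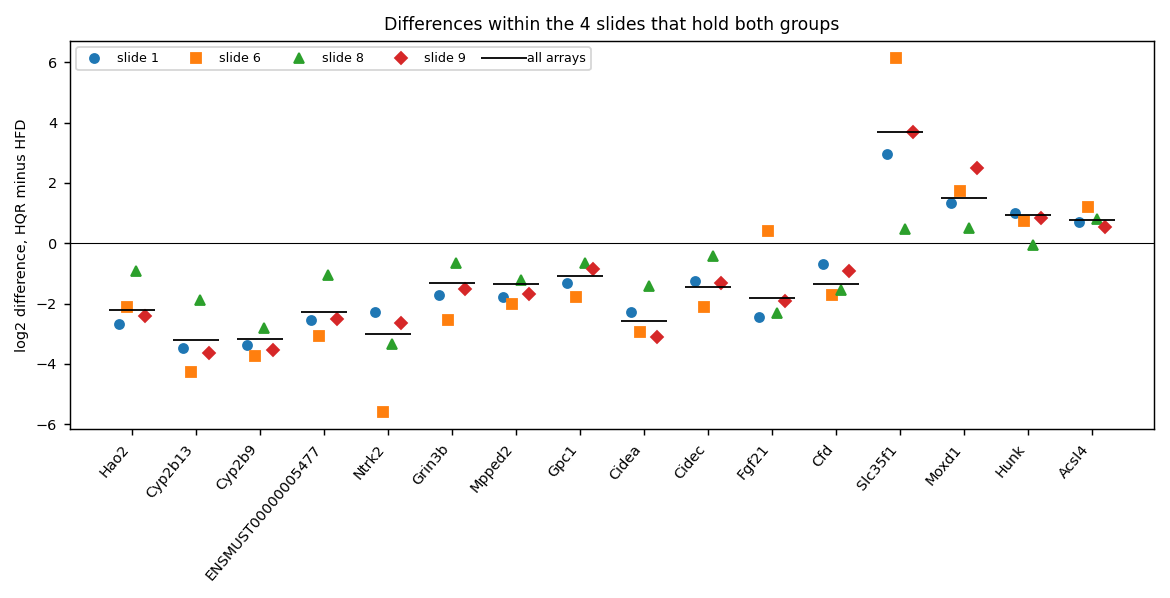
Difference of HQR minus HFD (vertical axis, log2 units) within slides 1, 6, 8 and 9 for 16 genes (horizontal axis), with a black bar for the estimate from all arrays. A slide gives 1 array of each group, except slide 9, which gives 2 HQR arrays. Hao2 lies below 0 on each slide, from -2.66 to -0.92, with most HQR values near background.

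Lipid droplet genes and PPARγ targets were lower in HQR in 18 of 24 cases, with a median of -0.19 (-0.35 without slide 8), and none passed. With an unadjusted p under 0.05, 6 were lower and 1 higher, as were 0.874% and 0.481% of all genes. Cidea, whose protein enlarges lipid droplets, was 0.65 at the lowest, 2.07 at the median and 3.68 at the highest in HQR, against 3.59, 4.6 and 6.63 in HFD, so the groups met at the edge. Its difference was -2.57 ± 0.77 (SE; adjusted p = 0.987). The related gene Cidec averaged 1.95 ± 0.66 in HQR and 3.4 ± 0.88 in HFD (SD, n = 6 each). Pparg itself differed by -0.33 ± 0.19 and the fatty acid transporter gene Cd36 by -0.61 ± 0.51, with -0.23 from a second Cd36 probe. Cfd encodes adipsin, a complement protease best known from fat cells, and was 3.9 at the lowest, 4.39 at the median and 5.14 at the highest in HQR, against 5.44, 5.61 and 6.31 in HFD. Its groups did not overlap, and its difference of -1.35 ± 0.55 had an adjusted p of 0.987. NAP025923-1, a neighbouring array entry without a gene name (mm9, chr10:79354900-79355125, plus strand), differed by -1.68 ± 0.56, and its groups overlapped. Of the 8 adipocyte markers tested, Cfd included, 5 were higher and 3 lower, and with slide as a block 3 were higher and 5 lower. Only 5 of the 8 were well above background on every HQR and HFD array.

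Genes of lipogenesis and triglyceride synthesis had no common direction, with 11 higher and 14 lower and a median of -0.02. Dgat2, which makes triglyceride, averaged 6.86 ± 0.25 in HQR and 7.37 ± 0.23 in HFD (SD, n = 6 each). Mogat1, of the same pathway, differed by -0.56 ± 0.27 (SE) and the stearoyl-CoA desaturase gene Scd1 by -0.91 ± 0.53. The fatty acid synthase gene Fasn differed by -0.09 ± 0.60, with a 95% interval of -1.32 to 1.14, and its regulator Srebf1 by -0.04 ± 0.56, with -1.19 to 1.11. With slide as a block the differences were -0.65 ± 0.52 for Fasn and -0.51 ± 0.57 for Srebf1. Fasn ran from 4.45 to 6.95 among HQR livers and from 4.58 to 7.71 among HFD livers.

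Genes of cholesterol synthesis and uptake were higher in HQR in 20 of 25 cases, with a median of 0.31, which was 0.12 with slide as a block. Their mean level ran from 1.77 to 2.39 on HQR arrays and from 1.12 to 2.31 on HFD arrays. None passed. The sterol demethylase gene Cyp51 averaged -1.71 ± 0.52 in HQR and -2.53 ± 0.71 in HFD (SD, n = 6 each), while other Cyp51 probes gave differences of 0.05 and 0.72. The squalene epoxidase gene Sqle differed by 0.66 ± 0.39 (SE) and Nsdhl, of the same pathway, by 0.69 ± 0.40, with 0.26 to 0.61 from its other probes. Among apolipoprotein and lipoprotein genes, 11 were higher and 12 lower. Apoa4, an apolipoprotein gene, averaged -2.55 ± 0.57 in HQR and -1.37 ± 0.57 in HFD, and the lipoprotein lipase gene Lpl -0.05 ± 0.49 in HQR and -0.72 ± 0.46 in HFD. Both overlapped between the groups.

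Of the 36 P450 genes of drug metabolism tested, 31 were lower and 5 higher, with a median of -0.28; Cyp2b13, Cyp2b9 and Cyp2b10 are among them. Aryl hydrocarbon receptor targets had 4 higher and 7 lower. Their classical members Cyp1a1 and Cyp1a2 differed by -0.26 ± 0.42 and -0.45 ± 0.39 (SE), and the receptor gene Ahr averaged 0.83 ± 0.38 in HQR and 1.43 ± 0.44 in HFD (SD, n = 6 each). NRF2 targets and antioxidant enzymes had 14 higher and 26 lower, with a median of -0.07, and the quinone reductase gene Nqo1 differed by -0.52 ± 0.40. Sirtuin, AMPK and PGC-1 genes had a median of 0.01. Sirt1 differed by 0.16 ± 0.25, with a 95% interval of -0.36 to 0.68 and -0.20 from a second probe, and Ppargc1a by 0.00 ± 0.28, with -0.57 to 0.57. No gene of these lists passed. Among conjugation enzymes, 15 were higher and 22 lower, and the sulfotransferase gene Sult1a1 differed by -0.97 ± 0.34.

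In fatty acid oxidation and PPARα targets, 14 genes were higher and 22 lower, with a median of -0.11 (0.06 with slide as a block). The liver hormone gene Fgf21 was -2.83 at the lowest, -2.25 at the median and 1.41 at the highest in HQR, against -0.24, 0.06 and 1.0 in HFD. HQR replicate 3 was above every HFD liver, and the other HQR livers were below every HFD liver. The difference was -1.81 ± 0.79 (SE; adjusted p = 0.987), and a second probe gave -1.12. Among glucose genes, 10 were higher and 22 lower, and the glucose transporter gene Slc2a2 averaged 2.9 ± 0.38 in HQR and 3.5 ± 0.24 in HFD (SD, n = 6 each). Among bile acid genes, 11 were higher and 16 lower, and Cyp7a1, whose enzyme sets the rate of bile acid synthesis, differed by -0.65 ± 0.57, with -0.20 from a second probe.

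Circadian clock genes were lower in 15 of 19 cases, with a median of -0.39 (-0.19 with normexp background correction). The clock repressor gene Ciart averaged -3.24 ± 1.15 in HQR and -1.6 ± 0.79 in HFD, and Per1 -0.12 ± 0.50 in HQR and 1.12 ± 0.84 in HFD (SD, n = 6 each). The adjusted p of both was 0.987, and the hour at which livers were taken was not used here. In endoplasmic reticulum stress, 12 genes were higher and 15 lower. Herpud1, which takes part in protein degradation there, ran from 4.28 to 5.21 in HQR and from 5.22 to 6.03 in HFD, just without overlap. In the amino acid stress response, 7 were higher and 16 lower, and the stress cytokine gene Gdf15 differed by -0.93 ± 0.41 (SE).

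Inflammatory genes had a median of 0.02 and interferon genes one of -0.06. The chemokine gene Cxcl10 was -2.91 at the lowest, -2.16 at the median and -1.34 at the highest in HQR, against -2.22, -1.09 and 0.11 in HFD, with overlap and a difference of -1.04 ± 0.35 (SE; adjusted p = 0.987). The interferon-induced genes Ifit1 and Rsad2 differed by -0.55 ± 0.26 and -0.64 ± 0.31, and other Rsad2 probes gave -0.40 and -0.15. Extracellular matrix and fibrosis genes had a median of 0.04 and cell cycle genes one of -0.03, with no member of either list at an unadjusted p under 0.05.

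**Figure D4:**
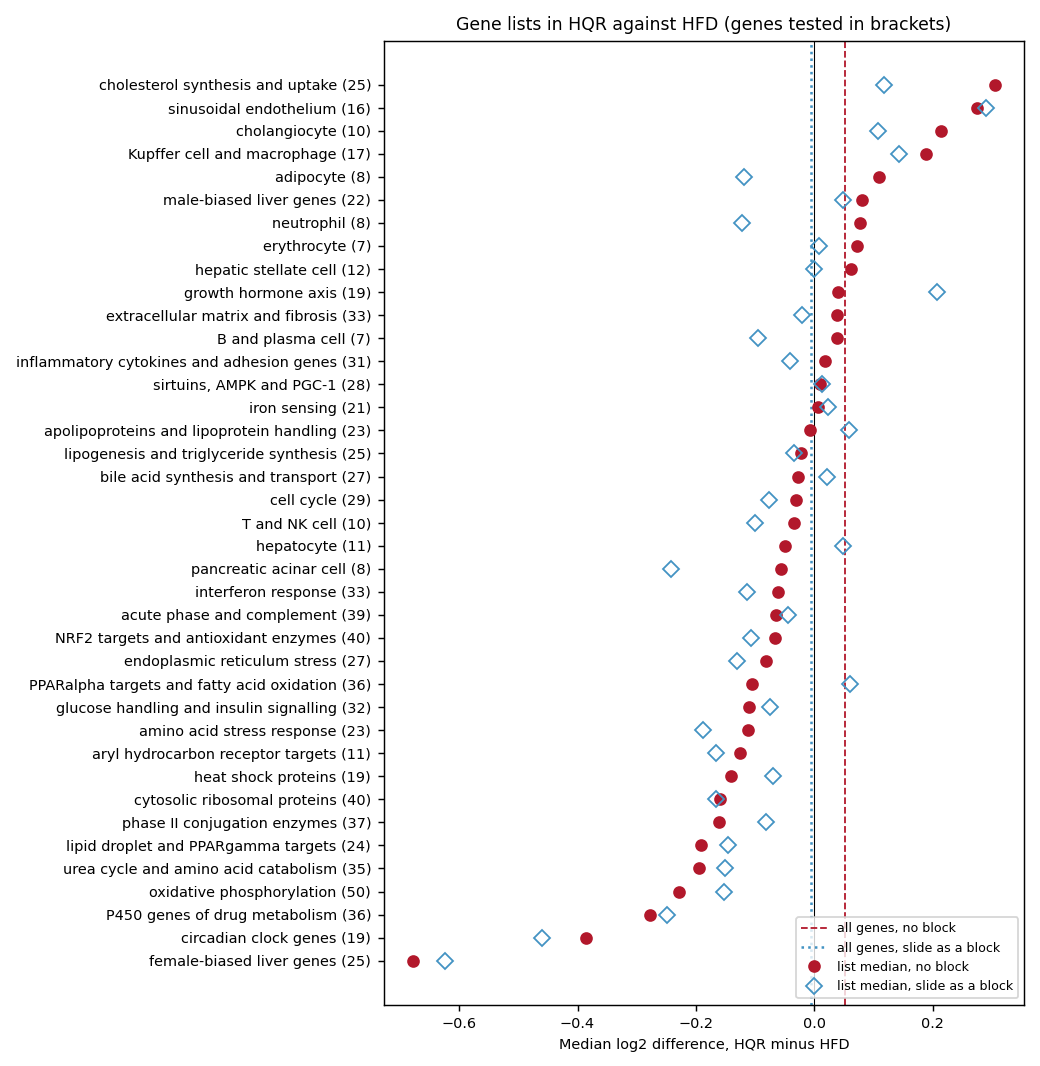
Median log2 difference of HQR minus HFD (horizontal axis) for 39 gene lists (rows, with the number of genes tested), without a block (filled circles) and with slide as a block (open diamonds). Vertical lines show the median over all genes. The female-biased list has the lowest median, -0.68, and cholesterol synthesis and uptake the highest, 0.31.

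Markers of cell types other than hepatocytes were in part higher in HQR, and none passed. Of all genes, 58.5% were higher, with a median of 0.05, and with slide as a block 48.8%, with a median of -0.01. All 10 cholangiocyte markers and 15 of 16 markers of sinusoidal endothelium were higher, with medians of 0.21 and 0.27. With slide as a block these were 8 and 15 markers, with medians of 0.11 and 0.29. The mean level of the endothelial list ran from 0.66 to 1.1 on HQR arrays and from -0.24 to 1.07 on HFD arrays. Of 17 Kupffer cell and macrophage markers, 14 were higher (10 with slide as a block), with a median of 0.19 that ran from 0.11 with the deposited value table to 0.35 without slide 9. Their mean level ran from -0.94 to -0.51 on HQR arrays and from -1.22 to -0.35 on HFD arrays. The hepatocyte markers had a median of -0.05 (0.05 with slide as a block). The endothelial growth factor gene Bmp2 averaged -1.05 ± 0.17 in HQR and -1.54 ± 0.71 in HFD, and the macrophage receptor gene Csf1r 1.51 ± 0.30 in HQR and 1.14 ± 0.24 in HFD (SD, n = 6 each). The part of these shifts in the results above was not tested.

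Differences also followed how bright genes were. The median was 0.19 in the dimmest of 4 equal brightness classes of genes and -0.04 in the brightest, and with slide as a block 0.01 and -0.04. Of 50 oxidative phosphorylation genes, all well above background on every HQR and HFD array, 48 were lower in HQR, with a median of -0.23 (-0.15 with slide as a block). Their mean level overlapped, from 3.5 to 4.75 on HQR arrays and from 4.14 to 5.03 on HFD arrays. Of 40 cytosolic ribosomal protein genes, 35 were lower, with a median of -0.16 (-0.08 with the deposited value table). The mean level of these ran from 4.56 to 5.27 on HQR arrays and from 4.86 to 5.66 on HFD arrays. No member of these lists had an unadjusted p under 0.05, and the ATP synthase gene Atp5c1 differed by -0.49 ± 0.32 (SE). In the urea cycle and amino acid catabolism, 26 of 35 genes were lower, and the ornithine aminotransferase gene Oat averaged 3.57 ± 0.91 in HQR and 4.79 ± 0.48 in HFD (SD, n = 6 each). The part of brightness in these counts, and in those of the cell type markers, was not tested.

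Against livers of the standard diet, 13 of 21850 genes passed in HQR minus SD (0.0595%), and 1428 had an unadjusted p under 0.05 (6.54%). Of the 13, 5 were higher and 8 lower in HQR. They are named here after their values were seen. HQR and SD mice differed in the base diet as well as in the compounds, and none of the 13 passed in HQR against HFD. Each of the 13 had the same direction in HFD minus SD, where Cfd, Enho, H2-Q1, Adam11, Tff3 and Asns also passed. Cfd rose by 4.09 ± 0.58 (SE; adjusted p = 0.00255), with a mean of 4.43 ± 0.48 in HQR and 0.34 ± 1.58 in SD (SD, n = 6 and 5). Its neighbouring entry NAP025923-1 was higher by 2.84 ± 0.59 and did not pass (adjusted p = 0.0657). Adam11, a gene of the metalloprotease-like ADAM family, rose by 1.8 ± 0.29 (adjusted p = 0.00683). The entries A430085C19 and AK080781 rose by 1.87 ± 0.32 and 2.84 ± 0.56, and Drc7 by 1.19 ± 0.23. Enho, the adropin gene, fell by 1.7 ± 0.25 (adjusted p = 0.00255), with a mean of 1.74 ± 0.34 in HQR and 3.43 ± 0.56 in SD. The class I histocompatibility gene H2-Q1 fell by 1.77 ± 0.28, the retinol dehydrogenase gene Rdh16f2 by 1.33 ± 0.22 and the trefoil factor gene Tff3 by 1.81 ± 0.30. Asns, which makes asparagine, fell by 2.72 ± 0.52 (adjusted p = 0.0456), Cyp2c54 by 1.5 ± 0.30, the transferrin gene Trf by 0.95 ± 0.19 and the angiotensin receptor gene Agtr1a by 0.77 ± 0.15. The adjusted p of Cyp2c54, Trf, Agtr1a, AK080781 and Drc7 was 0.048. Of the 18 alternatives counted for each gene, Agtr1a passed in 0, Trf in 2, Cyp2c54 in 3 and AK080781 in 4. Drc7 and Asns passed in 5 each, against 17 for Cfd and for Enho. No gene passed without the 4 arrays of slide 9, of which 2 are HQR and 1 is SD, and 47 passed with slide as a block, 11 of the 13 among them. Cyp2c54 (adjusted p = 0.0596) and Agtr1a (adjusted p = 0.105) did not pass with that block.

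The differences of HQR and of HFD from SD share the SD arrays, and those of HQR from HFD and of HFD from SD share the HFD arrays, so values are given side by side. Cyp2b9 averaged 0.49 ± 0.85 in HQR, 3.66 ± 0.37 in HFD and -2.3 ± 1.34 in SD (SD, n = 6, 6 and 5). Its difference from SD was 2.79 ± 0.68 in HQR (SE; adjusted p = 0.14) and 5.96 ± 0.68 in HFD (adjusted p = 3.29e-05). Cidea averaged 2.16 ± 0.99 in HQR, 4.74 ± 1.04 in HFD and -1.11 ± 1.51 in SD. For both genes the HQR mean lay between those of HFD and SD. Hao2 averaged -5.32 ± 0.88 in HQR, -3.11 ± 0.61 in HFD and -6.23 ± 0.18 in SD, where no array had it well above background. Ntrk2 averaged -6.34 ± 0.42 in HQR, -3.34 ± 1.22 in HFD and -3.76 ± 0.48 in SD, with no HQR array well above background. Enho differed between HQR and HFD by -0.05 ± 0.23, with a 95% interval of -0.53 to 0.43.

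**Figure D5:**
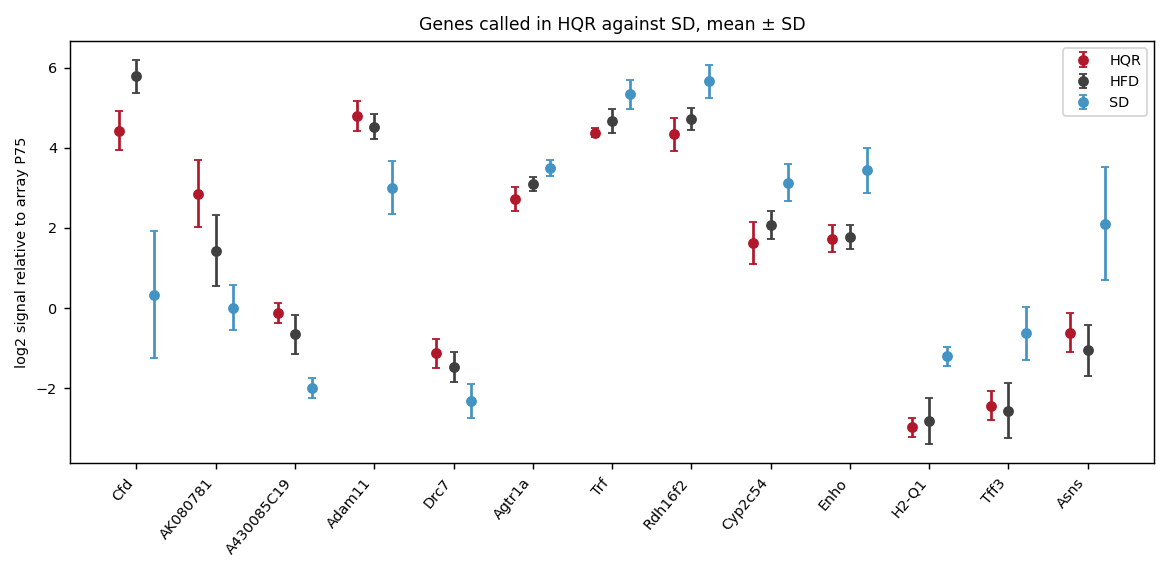
Mean and SD (vertical axis, log2, scaled to each array's 75th percentile) in HQR, HFD and SD for the 13 genes that passed in HQR against SD (horizontal axis). The mean of Cfd is higher, and those of Enho and Asns are lower, in HQR and HFD than in SD.

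The single-compound groups received 0.4% of one compound and HQR 0.2% of each, so the doses differ and the values are set side by side. No gene passed in HQR against HQ (0% called by limma, with 306 genes, or 1.4%, at an unadjusted p under 0.05) or in HQR against HR (0% called, with 604 genes, or 2.76%). Hao2 averaged -5.32 ± 0.88 in HQR, -5.39 ± 0.89 in HQ and -5.86 ± 0.52 in HR (SD, n = 6, 5 and 6). It was well above background on 1 HQR array and on no HQ or HR array, so these levels are mostly at background and are not compared. Cyp2b9 averaged 0.49 ± 0.85 in HQR, 2.16 ± 1.41 in HQ and 0.77 ± 1.65 in HR, with intervals of -3.08 to -0.27 against HQ and -1.63 to 1.05 against HR. Grin3b averaged -1.76 ± 0.68 in HQR, -0.32 ± 0.18 in HQ and -1.52 ± 0.18 in HR, and its difference of -1.44 ± 0.28 from HQ had an adjusted p of 0.4, the lowest of that comparison. Ntrk2 averaged -6.34 ± 0.42 in HQR, -3.35 ± 2.23 in HQ and -5.72 ± 0.87 in HR, and Acsl4 2.86 ± 0.25 in HQR, 2.41 ± 0.56 in HQ and 1.95 ± 0.43 in HR. Ntrk2 was well above background on no HQR or HR array and on 3 of 5 HQ arrays. None of these differences passed. Aatk averaged 2.84 ± 0.32 in HQR, 2.98 ± 0.46 in HQ, 2.61 ± 0.35 in HR and 3.86 ± 0.42 in HFD. Cfd averaged 4.43 ± 0.48 in HQR, 4.6 ± 1.41 in HQ, 4.29 ± 0.84 in HR and 5.78 ± 0.41 in HFD. Cyp2b13 averaged -1.62 ± 0.94 in HQR, -0.07 ± 1.18 in HQ, -1.21 ± 1.56 in HR and 1.57 ± 0.37 in HFD. For Aatk, Cfd, Cyp2b13, Cyp2b9 and ENSMUST00000005477 the means of HQ and HR also lay below that of HFD. The median of Grin3b was -0.27 in HQ and -0.35 in HFD, so HQ was not lower there. In HR against HFD, Hao2 (adjusted p = 0.00159) and Olfr701 (adjusted p = 0.0435) passed in limma, both lower in HR. Hao2 met the filter for testing only through its HFD arrays.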

How the data were processed

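Liver RNA of 28 mice had been hybridised to 1-colour Agilent mouse arrays. The deposited intensity values are processed signals of Agilent Feature Extraction 10.5.1.1, background-subtracted within each array, per the file headers. The deposited value table (a score whose scale and centring are not stated by the authors) correlated with the log2 processed signals of the same arrays at 0.999946 or more and served as an alternative. From the deposited signals, log2 values were computed relative to the 75th percentile of each array. Of 41174 probes, 32078 were well above background on at least 5 arrays, and the probe with the highest mean level stood for each of 21850 genes. Groups came from the sample titles. All 28 arrays were fitted with limma 3.58.1 (R 4.3.3), with Benjamini-Hochberg adjustment over all genes. The fit without a block was tested on simulated data made from shuffled arrays, which do not keep the slide layout. Probe names came from RefSeq by accession (25263 probes), symbol (6233) or synonym (1603), and otherwise from the array files (8075). Genes named come from a rule that gives 142: the 24 with the smallest p, up to 3 members of each list with the smallest p, and a fixed set. Not all of these are described, and which were was chosen with their values known. Members, lists and comparisons were chosen with earlier results of these data known. Alternatives covered scaling, background correction, filters, probe choice, blocks and left-out arrays. Array number limits the precision, and p-values cover the spread between single livers.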

Additional observations from a re-analysis of the deposited data

Results flagged for a closer look

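For 87 genes, the highest or lowest liver of the HQR and the HFD group was compared with the rest of its group (174 groups of 6), and 11 values lay far from the others. Chance alone flags about 1 in 20 groups. In HQR replicate 4, on slide 8, Hao2 was at -3.55 against -5.50 in the next liver, Hunk at -1.56 against -0.83, and Sirt1 at 1.93 against 2.79. In HQR replicate 3, Fgf21 was at 1.41 against -1.47 in the next liver and Slco1a4 at -1.37 against 0.32. In HFD replicate 3, Ntrk2 was at -0.98 against -3.30 and Herpud1 at 6.03 against 5.46. In HFD replicate 1, AK050119 was at -4.70 against -3.55 and Ppp1r3b at -0.80 against 0.96. In HFD replicate 4, Ptp4a3 was at -0.39 against 0.30, and in HFD replicate 6, TC1632605 was at -1.22 against -2.93.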

How the results depend on the processing

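In HQR against HFD, where 0 genes passed in limma, 3 passed with quantile normalization, with scaling to the array median and with the deposited value table. With normexp, the mean of all probes, the HQR and HFD arrays alone, slide as a block, slide as a block with quantile normalization, and without slide 8, 2 passed. Further counts were 1 with a stricter filter, 1 with slide as a block on the HQR and HFD arrays alone, 6 with array weights and 9 with slide as a random block. Leaving out 1 liver gave 0 to 4, with 4 without HQR replicate 4 and 4 without HR replicate 4. The count stayed at 0 without a filter, with an intensity trend, with scan day as a block, at a minimum fold of 1.5 and without slide 9. The replicate numbers do not pair the livers (correlations of deviations -0.47 to 0.68), and with the replicate block 0 genes passed in HQR against HFD, HQ and HR and 13 in HQR against SD, 8 of them shared. HQR against HQ gave 0 genes, and HQR against HR 0, in the alternatives run, except 1 in HQR against HR with array weights. In HQR against SD, 13 genes became 6 with normexp, 8 without a filter, 47 with slide as a block, 7 without slide 8 and 0 without slide 9, and 6 to 24 when 1 liver was left out. It became 24 with an intensity trend, 22 with a stricter filter, 103 with slide as a random block, 104 with array weights and 1 at a minimum fold of 1.5. Values near 0 turned sign. Cyp1a1 was 0.0097 without slide 9 and Sirt1 -0.018 with the mean of all probes. With slide as a block Fasn and Srebf1 kept their sign, at -0.65 and -0.51. Fasn was 0.586 with array weights, 0.419 without slide 8 and -0.354 to 0.2997 without 1 liver. Srebf1 was 0.0214 with the value table, 0.421 with array weights, 0.260 without slide 8 and -0.269 to 0.138 without 1 liver. Ppargc1a was -0.065 with the array median, -0.0543 with normexp, -0.085 with the mean of all probes, -0.118 with array weights, -0.0855 without slide 8 and -0.135 to 0.193 without 1 liver. Enho was -0.115 to 0.0452 without 1 liver. Of the medians of 39 gene lists, 21 turned sign in at least 1 of 7 settings, all of them between -0.13 and 0.11 without a block. The causes were not tested. Several alternatives were chosen after seeing the data: the slide block on 12 arrays or with quantile normalization, and leaving out a slide or an HQ, HR or SD liver. Genes near background, such as Hao2, Ntrk2 and Slc35f1, have only bounds or partly measured levels in the dim group.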
